A study of Mus musculus with 6 samples.

Results

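The genes described here are the abundant rows that the count tables list under a noncoding RefSeq accession. They were chosen by their measured totals, as the 287 rows whose accession begins with NR_ and whose raw counts sum to 600 or more over the 6 libraries, of 3648 rows with such an accession and 24062 rows in all. The RNA came from RAW264.7, a line of mouse macrophages, and RNA of several wells was pooled into the single library of each condition, so no difference between conditions has a replicate check. M0 cells were not polarized, M1 cells received LPS at 100 ng/mL with IFN-γ at 20 ng/mL for 24 h, and M2 cells received IL-4 at 20 ng/mL for 24 h. RM0, RM1 and RM2 were the same states given 10 Gy of gamma rays from a cesium source and kept for 24 h more, and the sources used here do not say whether the non-irradiated cells were kept for that time. The labels give bone marrow as the tissue beside the cell line. RAW264.7 is a virus-transformed line, which limits it as a model of primary macrophages.

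Noncoding RNAs act in several ways. Long noncoding RNAs (lncRNAs) such as Neat1 and Malat1 stay in the nucleus, where Neat1 is the scaffold of paraspeckles and Malat1 is found in nuclear speckles. Others are host genes, transcribed mainly so that small nucleolar RNAs (snoRNAs), which guide the chemical modification of ribosomal RNA, can be cut out of their introns. Pseudogenes are copies of coding genes, and a microRNA (miRNA) gene gives a hairpin that is trimmed to a short RNA that silences messages. In macrophages, inflammatory signals through LPS and interferon are known to switch on sets of lncRNAs along with the coding genes of the response.

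The annotation went against reading these 287 rows as noncoding genes. RefSeq on GRCm38.p6 held 284 of them, 261 by the listed accession, and classed 141 as protein-coding genes, 67 as lncRNAs, 46 as pseudogenes and 29 as miRNAs, which left 4 others. A coding gene appears here where its row carries the accession of a noncoding transcript variant, and for 140 of these 141 genes the tables hold no other row. The coding genes gave 73.1% of all member reads. The row with the most reads was Fth1, the heavy chain of the iron store ferritin, with 245673 to 689738 counts a library. Other abundant coding rows varied less. Ldha, which makes lactate from pyruvate, had 23779 to 28126 counts, the macrophage glycoprotein Cd68 12059 to 15298, the ribosomal protein gene Rps27 11452 to 16240 and the proteasome subunit Psmd2 7591 to 8792. The members held 3.64% to 5.58% of all counted reads, and those not annotated as coding genes held 0.908% to 1.44%.

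All 287 members had at least 10 counts in at least 3 libraries, and 233 had at least 100 counts in every library. The rule uses the sum over all conditions. If all libraries had been at the mean level of M0, M2, RM0 and RM2, then 9 members would have fallen under 600 counts, namely U90926, AW011738, Sprr2g, H2-Q5, H2-T10, 9530082P21Rik, Zeb2os, 4933412E12Rik and Gm12338. These were included through M1 and RM1, so the rule favoured their being higher there, and their M1 values below are a description. Just inside the limit were 5033406O09Rik and Gm9833 at 601 counts each and 2210015D19Rik at 611. Just outside were Xntrpc at 589 counts and 2900076A07Rik and Adamts10 at 587 each.

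Many pseudogene rows repeated the counts of a coding gene, and most miRNA rows lay inside one. Of the 46 pseudogene rows, 16 were listed at a position outside their RefSeq locus, and all 16 of those positions lay in exons of a coding gene on the same strand. Oaz1-ps, whose own locus is chr17:17345242-17346204, was listed at chr10:80828871-80829217 (mm10, as are all positions here) inside Oaz1, an inhibitor of polyamine synthesis. Its counts, in the order M0, M1, M2, RM0, RM1, RM2, were 5858, 6734, 5762, 5583, 4360 and 4153, and the Oaz1 row held the same 6 numbers. Gm15772 had the same counts as the ribosomal protein gene Rpl26 in all 6 libraries. Gm6644, the pseudogene row with the most reads, differed from the aldose reductase gene Akr1b3 only in RM0, at 26117 against 26118 counts. In all, 8 of the 16 rows stayed within 1% of the coding row in every library and 12 within 10%. Gm6793 was the row farthest from its coding partner, the splicing factor Hnrnpa3, with 42.2% to 88.1% of its counts. For such rows the pseudogene and the coding gene cannot be told apart, and their values are reported below as uncertain. Of the 67 lncRNA rows, 7 overlapped an exon of a coding gene on the same strand, 13 on the opposite strand and 47 none. The values of those that overlapped one may include reads of the coding gene.

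**Figure D1:**
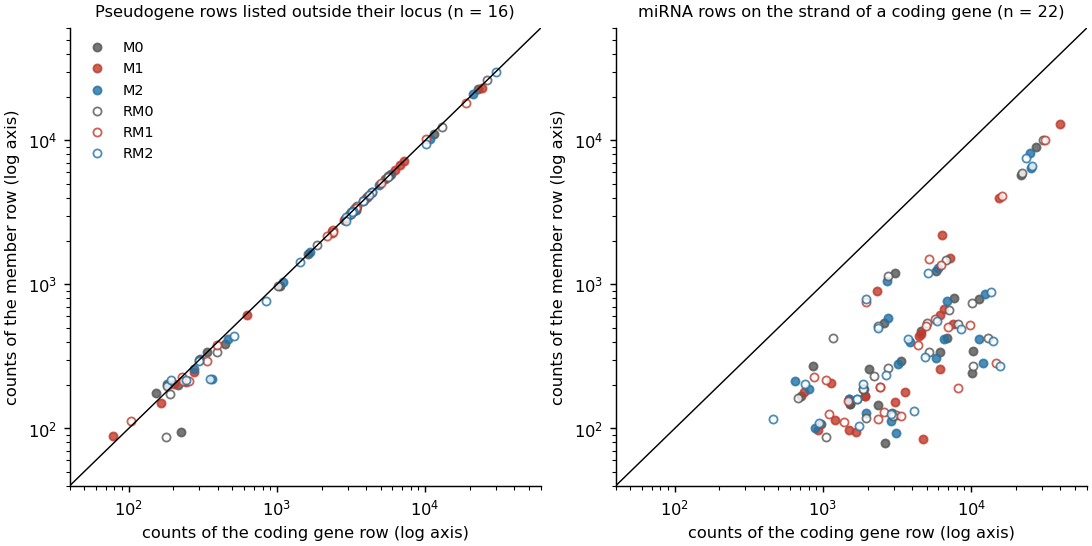
Counts of each member row (vertical, log axis) against counts of the coding gene row at the same position (horizontal, log axis), 1 point per library, filled for non-irradiated and open for irradiated, with the line of equality. The 16 pseudogene rows on the left lie on or near the line except Gm6793, and the 22 miRNA rows on the right all lie below it, at 1.76% to 41.6% of the coding row.

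The 29 miRNA rows were listed over 20 to 121 bases, the size of a hairpin or of its mature RNA. Of them 25 overlapped an exon of a coding gene on the same strand and 2 on the opposite strand, 16 over their full length, and 2 overlapped none. Mir6367, Mir3962, Mir692-2a and Mir7676-1 were listed outside their RefSeq locus, in exons of Ahnak, Ccnd1, Ftl1-ps1 and Csf2rb. Where the coding gene on that strand had a row of its own, which was so for 22 miRNA rows, the miRNA row had fewer counts in every library. These were not small RNA libraries, so the counts are reads over the listed bases and are no measure of the mature miRNA. RefSeq gave mature sequences for 26 of the 29. Those of the miRNA rows that the values below turn on are shown here 5′ to 3′, with the seed (bases 2 to 8), which pairs with target messages, in capitals.
miR-5121: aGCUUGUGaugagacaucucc
miR-7678-5p: uUACAAGGgcuggauaggaau
miR-7678-3p: uUUCCUUAcuuucucuuguagc
miR-682: cUGCAGUCacagugaagucug
miR-7676-5p: aGGGCAGUaugauggccucugau
miR-7676-3p: uCCGGUGCucacucugcccaca
Mir5121 (chr7:45126918-45126991) lies wholly in an exon of the ribosomal protein gene Rpl13a and held 32.1% to 33.3% of its counts. In the same library order Mir5121 had 9032, 12885, 8225, 10059, 10071 and 7533 counts. Mir7678 (chr2:164354313-164354383) lies in Slpi, a secreted inhibitor of proteases, with 1.4% of its length in an exon, and held 25.4% to 36.7% of the Slpi counts. Mir7676-1 and Mir7676-2, which share both seeds, had identical counts, as did Mir692-2a and Mir692-2b. Among the 26 with a mature sequence, which do not include the Mir692-2 rows, no other seed was shared. Mir682 (chr13:75645046-75645141) was one of the 2 that overlapped no coding exon, and GENCODE places it in Gm4149, a processed pseudogene at chr13:75644896-75645171.

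The libraries held 17894937 to 18870516 counted reads. Factors of the TMM method, which scales libraries so that most genes do not differ, were 0.8119 for M1 and 0.8764 for RM1 and 1.045 to 1.135 for the other 4. Of the macrophage markers, 7 of 8 were found, each at 100 counts or more in every library. T cell, B cell and epithelial lists summed to 0 to 4 counts and the endothelial list to 17 to 56. The fibroblast list summed to 128 to 199 counts in M0, M2, RM0 and RM2 and to 645 and 764 in M1 and RM1, of which Dcn gave 627 and 726, while Col1a2 and Col3a1 were at 0 in all 6 libraries. The part of other cell types in the M1 values below was not tested. In bulk RNA, fewer cells of a type and less RNA per cell cannot be told apart.

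Few of these genes differed between irradiated and non-irradiated cells, and the pseudogene Sprr2g was the only one called higher in every state. A call required a 2-fold difference in TMM-scaled counts and at least 10 counts in the higher of both libraries. RM0 against M0 had 5 members called, 4 higher and 1 lower, or 1.74%, beside 1.54% of all genes tested (0.727% higher and 0.813% lower). RM1 against M1 had 15, 8 higher and 7 lower, or 5.24%, beside 5.32% (3.23% and 2.09%), and with library totals 9 were higher and 5 lower. RM2 against M2 had 5, 1 higher and 4 lower, or 1.74%, beside 1.97% (1.03% and 0.932%). These shares lay near the background in each state, but that background takes in genes with fewer counts than the members. Among all genes with at least 50 counts, 22 were higher and 32 lower of 10296 in RM0 against M0. There were 183 and 119 of 10016 in RM1 against M1 and 39 and 28 of 10375 in RM2 against M2. The members called stayed the same, so with that filter they were a larger share than all genes in each state. No row annotated as a coding gene was called in RM0 against M0 or RM2 against M2, and 1 was called in RM1 against M1, namely Jmjd4 at a log2 fold change of 1.09. Together 18 members were called in at least 1 state, and 1 in the same direction in all 3. These joint counts were not made over all genes, so they have no background to be set against.

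Sprr2g, a relative of the small proline-rich proteins of the skin barrier that RefSeq lists as a transcribed pseudogene (chr3:92373915-92375229), went from 47 counts to 113 between M0 and RM0, from 820 to 2083 between M1 and RM1, and from 66 to 171 between M2 and RM2. Each irradiated library was above its partner, with log2 fold changes of 1.25, 1.20 and 1.38, and 95% intervals of 0.78 to 1.81, 1.09 to 1.32 and 0.99 to 1.84 that cover counting error only. An additive fit of polarization and irradiation over the 6 libraries, with the states standing in for replicates, was assessed by the quasi-likelihood test of edgeR. Sprr2g alone of the 287 members passed for irradiation, with a log2 fold change of 1.28 ± 0.12 (SE, 6 libraries) and an adjusted p of 0.00525, and 0 members passed as lower, beside 0.458% of the 11574 genes tested passing (0.346% higher and 0.112% lower). Before adjustment 47 members and 1718 of all genes, or 14.8%, had p under 0.05. The count of members passing depended on the states in the fit. It was 9 without M0 and RM0, 14 without M1 and RM1 and 6 without M2 and RM2, each fit leaving 4 libraries, and DESeq2 gave 6. Fits with a state left out, here and below, have fewer residual degrees of freedom than the full fit, so passing in them is a weak check.

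**Figure D2:**
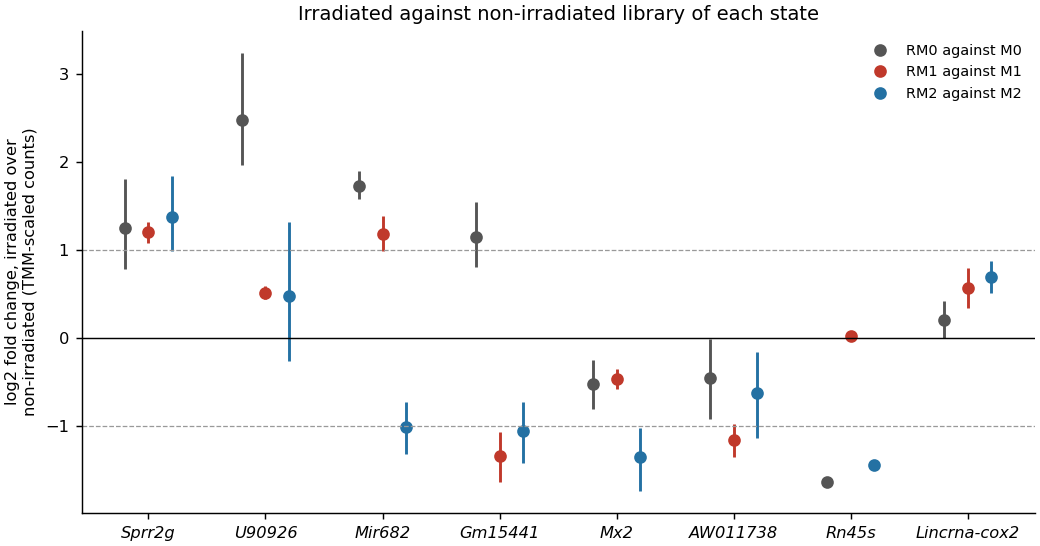
Log2 fold change of the irradiated over the non-irradiated library (vertical, TMM-scaled counts) for 8 members in each state, with vertical lines for 95% Clopper-Pearson intervals of counting error where wider than the point, and dashed lines at 2-fold. Sprr2g lies above the upper dashed line in all 3 states, and Mir682 and Gm15441 change sign between states.

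Rn45s, the 45S precursor of ribosomal RNA (listed at chr17:39842997-39848829), had the most reads of the members without a coding annotation. Between non-irradiated and irradiated cells it went from 97949 to 31217 counts in the M0 state, from 95075 to 34322 in M2 and from 17954 to 20154 in M1, which was 0.0972% to 0.537% of counted reads. M0 and M2 were high and the other 4 libraries were lower and close together. The log2 fold change was -1.63 in RM0 against M0, -1.44 in RM2 against M2, 0.03 in RM1 against M1 and -2.05 in M1 against M0. Over the 3 states the change with irradiation did not pass (log2 -1.03, adjusted p = 0.130, edgeR). Of the settings tried it passed in the fit without M1 and RM1 alone (log2 -1.53), which leaves out the state in which it hardly changed. The labels say that mRNA was enriched or depleted without saying which, and most ribosomal RNA is removed in either step, so how much of the precursor reached each library is not known. The part of that step in these values was not tested.

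U90926, a lncRNA of macrophages that respond to LPS (chr5:92209895-92215408), went with irradiation from 26 counts to 153 in the M0 state, from 2486 to 3917 in M1 and from 25 to 35 in M2. It was 2.48 higher on the log2 scale in RM0 against M0 (interval 1.97 to 3.24). In RM1 against M1 and in RM2 against M2 the log2 fold changes were 0.51 and 0.48. Over the 3 states it did not pass (log2 1.00, adjusted p = 0.164, edgeR), but it passed without M1 and RM1 (1.79) and without M2 and RM2 (1.17).

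The row of Mir682 went with irradiation from 424 counts to 1395 in the M0 state, from 297 to 747 in M1 and from 301 to 145 in M2. It was higher by 1.73 and 1.19 on the log2 scale in RM0 and RM1 and lower in RM2 (-1.01), and RM2 against RM0 had a log2 fold change of -3.27. The lncRNA gene Gm15441 is annotated on the strand opposite Txnip, an inhibitor of the antioxidant thioredoxin, and spans it at chr3:96555768-96566801, though its row was listed over the 103 bases chr3:96566699-96566801. Its counts went from 91 to 202 in the M0 state, from 353 to 153 in M1 and from 223 to 104 in M2. On the log2 scale the change was 1.15 in RM0 and -1.34 and -1.05 in RM1 and RM2. The Txnip row, from 27213 to 42098 counts, was called in none of these comparisons. The Txnip locus ends at chr3:96561857, outside those 103 bases, so reads over those bases alone are not shared with it. The sources used here do not say whether reads were counted by strand. Any reads counted over the rest of the Gm15441 span may not be told apart from those of Txnip.

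Some members with higher counts in M1 had lower counts in irradiated libraries, without passing the test for irradiation over the 6 libraries by edgeR. Mx2, an interferon-induced GTPase that blocks viruses and is listed as a pseudogene in this reference, went from 266 to 182 counts in the M0 state, from 1333 to 1066 in M1 and from 241 to 91 in M2. It was called in RM2 against M2 at a log2 fold change of -1.35. Over the 3 states the log2 change was -0.72 with an adjusted p of 0.0837, and it passed by DESeq2, with no filter on low counts and in the fits without M0 and RM0 or without M1 and RM1. The lncRNA AW011738 went from 732 counts to 361 between M1 and RM1 (log2 fold change -1.16), with an adjusted p of 0.0646 over the 3 states, and it passed by DESeq2, with no filter and in the fits without M0 and RM0 or without M2 and RM2. The Mir692-2a and Mir692-2b rows, with identical counts, had the lowest value of any member in RM1 against M1, at 697 and 282 counts (log2 fold change -1.44). Over the 3 states their adjusted p was 0.0936, and they passed in the same 4 settings as AW011738. H2-Q5, of the class I antigen-presentation family, went from 361 to 185 between the same libraries (log2 fold change -1.10). Its family members are near-identical, so its reads may be split among them.

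RM1 against M1 also called 8 members higher, and 5 of these were also called lower in M1 against M0. Trp53cor1 (lincRNA-p21), a lncRNA induced by p53, had 239, 43, 220, 259, 98 and 257 counts in the order M0, M1, M2, RM0, RM1, RM2. M1 was the lowest library and RM1 the next, and the log2 fold change was 1.02 in RM1 against M1 and 0.13 and 0.26 in the other states. Zfp862-ps (107 in M1, 264 in RM1), AI839979 (45 and 115), Jmjd4 (60 and 143) and Mir6367 (84 and 190) were the others. M1 against M0 and RM1 against M1 share the M1 library, so a low value in M1 favours both calls. The overlap was not counted over all genes and is not read as a trait of these members. None of the 4 p53-linked lncRNAs among the members, Trp53cor1, Pvt1, Neat1 and Tug1, passed for irradiation by edgeR, with log2 changes of 0.40, 0.17, 0.08 and 0.24, and 1 of the 4 was called in a single state. Lincrna-cox2, which lies beside the prostaglandin synthase gene Ptgs2, went from 368 to 420 counts in the M0 state, from 264 to 432 in M1 and from 401 to 633 in M2, a change of 0.49 over the 3 states with an adjusted p of 0.128, and it passed in the fit without M1 and RM1.

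M1 polarization was the condition in which most members differed. M1 against M0 had 64 members called, 41 higher and 23 lower, or 22.3%, beside 22.7% of all genes, of which 8.98% were higher and 13.7% lower. RM1 against RM0 had 38, 21 higher and 17 lower, or 13.2%, beside 14.1% (6.26% and 7.84%). Among all genes with at least 50 counts, 813 were higher and 1186 lower of 10381 in M1 against M0. In RM1 against RM0 there were 554 and 595 of 10326. The members called stayed the same, so with that filter they were a larger share than all genes in both comparisons. Of the 71 members called in either, 31 were called alike in both, 20 higher and 11 lower. That overlap was not counted over all genes. In the additive fit 132 members passed for M1 polarization by edgeR, 80 higher and 52 lower, beside 47.6% of all genes passing (22.9% higher and 24.7% lower), and 158 had p under 0.05 before adjustment beside 54.6%. The split rested on the scaling, since with library totals the same test gave 37 higher and 102 lower, the pairwise calls were 18 higher and 50 lower in M1 against M0 and 14 and 27 in RM1 against RM0, and the median of all genes moved from -0.05 to -0.46 in M1 against M0. By class, the test gave 22 higher and 13 lower of 67 lncRNAs, 21 and 5 of 46 pseudogenes, 10 and 5 of 29 miRNA rows and 26 and 28 of 141 coding genes. The 9 members that reached the limit on summed counts through M1 and RM1 were not left out of any count in this paragraph. The rule favoured their being higher, and all genes were not chosen by it. Whether the members' higher counts and shares differ from those of all genes without these 9 was not tested.

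**Figure D3:**
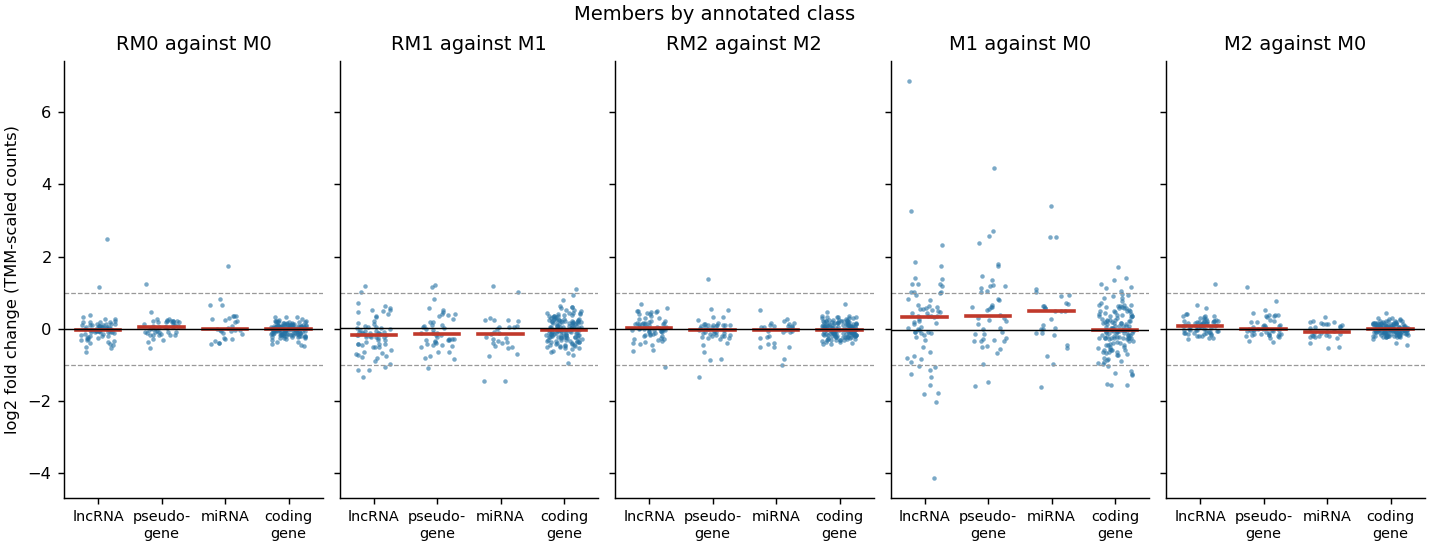
Log2 fold change of the members of 4 annotated classes (vertical, TMM-scaled counts) in 5 comparisons, 1 point per member, with red bars for class medians, a black line for the median of all genes tested and dashed lines at 2-fold. Points spread most in M1 against M0, from -4.14 to 6.87, where the lncRNA and pseudogene medians were 0.31 and 0.34 and fell to -0.11 and -0.08 with library totals. Members whose rise with M1 was favoured by the rule on summed counts are included.

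Among lncRNAs the widest changes in both directions came with M1. U90926 was higher by 6.87 on the log2 scale in M1 against M0 (counting interval 6.42 to 7.60) and by 4.90 in RM1 against RM0. Its fitted change was 5.63 ± 0.34 (SE, 6 libraries), a description because the rule favoured its rise. AI506816 (chr5:23692261-23712667) went the other way, with 9 counts in each of M1 and RM1 and 182 to 317 in the other 4 libraries. Neither M1 library reached the range of the other 4, and the fitted log2 change was -4.22 ± 0.27 (adjusted p = 1.88e-06, edgeR). AW011738 (chr4:156203284-156206028) had 59 to 99 counts in those 4 libraries against 732 and 361, a fitted change of 2.96. Further lncRNAs that rose in the test were Pvt1 (1.15), the lncRNA of the MYC locus, and Dleu2 (1.14), a host gene of miRNAs. 9530082P21Rik (1.52) and Zeb2os (1.29), like U90926 and AW011738, reached the limit of 600 through M1 and RM1. Zeb2os and 9530082P21Rik overlap an exon of Zeb2 and Flywch1 on the opposite strand.

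**Figure D4:**
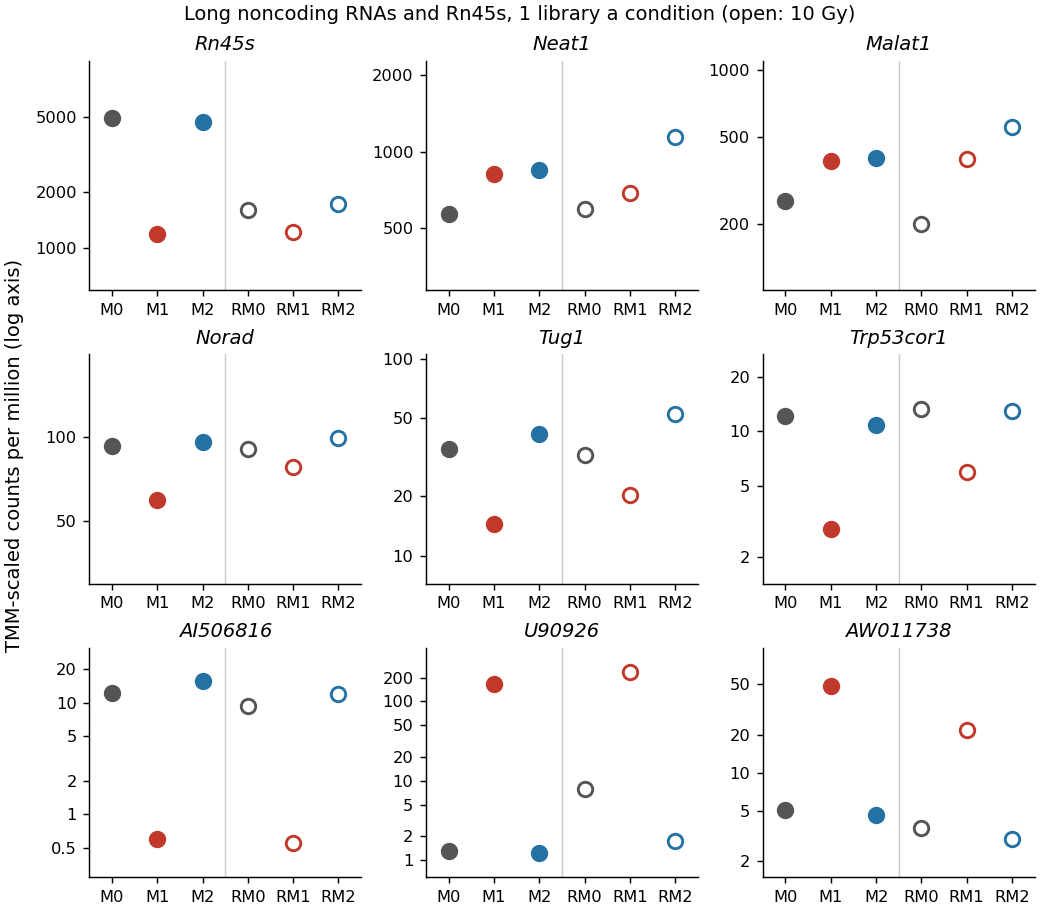
TMM-scaled CPM, counts relative to library size (vertical, log axis, a scale of its own per panel), of 9 members in each library, 1 point per condition with no error bar because each condition has 1 library, filled for non-irradiated and open for irradiated cells. U90926 and AW011738 are highest in M1 and RM1, AI506816, Tug1, Norad and Trp53cor1 are lowest there, and Rn45s is high in M0 and M2 alone.

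The lncRNAs that fell in the M1 test held several named regulators. Tug1, a nuclear lncRNA, had 687, 216, 842, 631, 338 and 1047 counts in the order M0, M1, M2, RM0, RM1, RM2, a fitted log2 change of -0.96. Norad (listed as 2900097C17Rik), which binds the RNA-binding Pumilio proteins, had 1840, 890, 1955, 1764, 1294 and 1964 counts in the same order, a change of -0.42 (adjusted p = 0.0246, edgeR). M1 and RM1 were the lowest libraries for both genes, and Trp53cor1 fell by 1.55 on the log2 scale over both radiation levels. The uncharacterized 1110002L01Rik, Gm6329 and Cep83os fell by 1.56, 1.34 and 1.29. Of these, 1110002L01Rik overlaps an exon of Kif3c on the opposite strand.

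Sprr2g and relatives of immune genes had the largest fitted changes of the pseudogene rows that rose with M1. Sprr2g had a fitted log2 change of 4.48 ± 0.15 (SE, 6 libraries) and Mx2 one of 2.76. The rule on summed counts favoured a rise with M1 of Sprr2g, H2-T10 and H2-Q5, so their fitted changes and rank here are a description. The Sprr2 genes are alike in sequence, so reads of Sprr2g may be shared with them. The class I relatives H2-T10 (99 counts in M0 and 456 in M1), H2-Q5 (90 and 361) and H2-K2 (116 and 309) changed by 2.06, 1.85 and 1.69, with reads that may be shared with other class I genes. Gm6793, listed inside Hnrnpa3, rose by 1.66 without following the Hnrnpa3 counts closely. Gm1821, inside the ubiquitin gene Ubb, rose by 1.13 and Gm7367, inside Ubald2, by 0.82, and each followed its coding row. Of the pseudogene rows that fell, Gm6644 had 22879 counts in M0 and 6235 in M1, as the Akr1b3 row did.

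Among miRNA rows, Mir7678 had 272 counts in M0 and 2186 in M1 and the Slpi row that holds it had 860 and 6361, with log2 fold changes of 3.40 and 3.28. The Mir692-2a and Mir692-2b rows, in an exon of Ftl1-ps1, a relative of the ferritin light chain, had 157 counts in M0 and 697 in M1. Over the 22 miRNA rows with a coding row on their strand, the median absolute difference between the log2 fold changes of the 2 rows was 0.16 in M1 against M0. Over the 16 displaced pseudogene rows it was 0.003. Mir703, which overlaps no coding exon, had 177 and 289 counts, a log2 fold change of 1.10. Mir704, with 18.2% of its length in an exon of the chaperone gene Pdia4, had 295 and 453, a log2 fold change of 1.01. Mir8094, in the RNA helicase gene Ddx39b, fell in the test by 1.00 on the log2 scale.

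Of the 141 coding genes listed under a noncoding variant, 7 were called higher and 8 lower in M1 against M0, or 10.6%, beside 22.7% of all genes (8.98% higher and 13.7% lower). Fth1 had 279068 counts in M0 and 689738 in M1, a log2 fold change of 1.70. The others called higher were the RNA-binding Rbmx (1.41), Taf1d (1.35), a factor of RNA polymerase I transcription, Tctn1 (1.24), Zfp207 (1.15), 1500011K16Rik (1.11) and the fucosyltransferase Fut8 (1.04). Those called lower were Wdr73 (-1.55), Rasgrp4 (-1.55), a Ras activator of myeloid cells, Rnaseh1 (-1.53), which removes RNA from RNA-DNA hybrids, Atf5 (-1.29), a stress-response transcription factor, Jmjd4 (-1.25), the ribosome assembly factor Nip7 (-1.23), Nol8 (-1.16) and Sfpq (-1.04), a paraspeckle protein. All 15 also passed the M1 test over both radiation levels. The Atf5 row, listed over part of the gene, overlaps an exon of Il4i1 on the opposite strand.

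The host genes of snoRNAs were mostly called in no comparison of irradiated with non-irradiated cells, though all had lower values in RM1 than in M1. Of 23 listed hosts 9 were members, and none passed for irradiation, with adjusted p from 0.27 to 0.98 by edgeR. In RM1 against M1 all 9 had a log2 fold change below 0, with a median of -0.43 beside 0.02 over all genes, and 9 of 9 stayed below 0 with DESeq2 size factors and with library totals, where the medians were -0.48 and -0.32. The lncRNA, pseudogene and miRNA members as classes also lay lower in RM1 against M1, with medians of -0.16, -0.14 and -0.16. Of these, 46 of 67, 28 of 46 and 17 of 29 were below 0. Coding members had a median of -0.03 with 74 of 141 below 0, and the share of all genes below 0 was not counted. Among the hosts only Snhg16 (listed as 1810032O08Rik) was called there, at 353 counts in M1 and 176 in RM1. In RM0 against M0 and RM2 against M2 the medians were -0.06 and -0.09. In the M1 test 3 of the 9 rose, namely Snhg16 (1.22), Snhg5 (0.49) and Snhg1 (0.37), none fell, and the other 6, Gas5 among them with 1422 counts in M0 and 1096 in M1, did not pass. The median of the 9 in M1 against M0 was 0.44 and fell to 0.03 with library totals. Snhg16 overlaps an exon of St6galnac2 on the opposite strand.

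**Figure D5:**
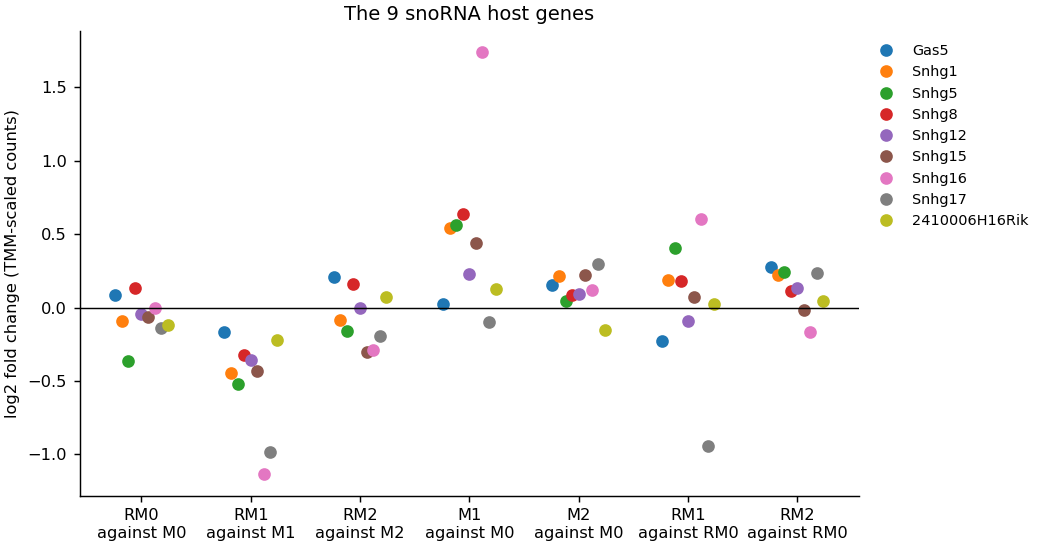
Log2 fold change (vertical, TMM-scaled counts) of the 9 snoRNA host genes in 7 comparisons of 1 library with another, 1 color per gene. All 9 lie below 0 in RM1 against M1, from -1.14 to -0.16, and Snhg16 lies apart at 1.74 in M1 against M0.

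Genes that act with these RNAs are given by count, from lists chosen for function. Of the snoRNP, paraspeckle, nonsense-mediated decay, nuclear decay, 7SK particle and miRNA processing genes tested, 0 passed for irradiation by edgeR. In the M1 test, in which 22.9% of all genes passed as higher and 24.7% as lower, 1 of 11 proteins of snoRNA particles rose and 10 fell, and their median log2 change was -1.06 beside -0.03 over all genes. Of 6 paraspeckle proteins, Sfpq among them, 0 rose and 3 fell, and of 7 miRNA processing genes 1 rose and 4 fell. Of 10 nonsense-mediated decay factors, which clear spliced host transcripts, 5 rose and 0 fell. The nuclear decay factors had 0 of 8 higher and 3 lower, and the 7SK particle proteins 2 of 6 higher and 3 lower. With library totals the balance of calls over all genes moved toward lower ones, as given above. Of the 5 nuclear lncRNAs that were members, Malat1 rose (0.78), Tug1 and Norad fell, and Neat1 and Firre did not pass, and with library totals Malat1 did not pass either (0.44). Of the 4 p53-linked lncRNAs, Pvt1 rose, Trp53cor1 and Tug1 fell and Neat1 did not pass. Of the 2 inflammation-linked lncRNAs, U90926 rose and Lincrna-cox2 did not pass (log2 0.10). Of the small structural RNAs listed, Rn45s was the only member, and it fell in the M1 test (-1.16, adjusted p = 0.0122, edgeR) but did not pass by DESeq2. Of the list of genes named as miRNA hosts, which does not hold Dleu2, Mir22hg was a member and did not pass (adjusted p = 0.18 for M1, edgeR), and of the imprinted and X-linked list, Peg13 was a member and did not pass.

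M2 polarization changed few members. M2 against M0 had 2 members called, both higher, or 0.697%, beside 1.44% of all genes (0.995% higher and 0.442% lower). They were Gm15441 (1.24) and Gm6793 (1.16). Among all genes with at least 50 counts, 30 were called higher and 8 lower of 10351 in M2 against M0. In RM2 against RM0 there were 68 and 33 of 10336. The members called stayed the same with that filter, a larger share than all genes in both comparisons. RM2 against RM0 had 6, Malat1 (1.45) and Gm6793 (1.30) higher and Mir682 (-3.27), U90926 (-2.09), Mir7678 (-1.89) and Mx2 (-1.01) lower, or 2.09%, beside 2.6% (1.63% and 0.97%), and with library totals 3 were higher and 3 lower. In the fit Malat1 and Gm6793 passed as higher, beside 0.242% of all genes passing (0.181% higher and 0.0605% lower), and 35 members had p under 0.05 before adjustment beside 10.3%. With library totals 0 members passed. Without M1 and RM1 41 members passed. Malat1 (chr19:5795690-5802672) went from 5041 counts to 8136 between M0 and M2 and from 3924 to 10941 between RM0 and RM2, so that each M2 library was above its M0 partner. It had 5827 and 6557 counts in M1 and RM1. Its fitted log2 change was 1.05 ± 0.17 (SE, 6 libraries, adjusted p = 0.0423, edgeR). Neat1 (chr19:5824708-5845480) went from 11235 counts to 17249 and from 11604 to 22544 between the same libraries, and had 12257 and 11397 in M1 and RM1. M2 and RM2 were the highest libraries, but its change of 0.77 did not pass (adjusted p = 0.127, edgeR), while at much the same size it passed by DESeq2 (0.76) and in the fit without M1 and RM1 (0.77). Gm6793 had 95 and 220 counts in M0 and M2 and 87 and 221 in RM0 and RM2, where the Hnrnpa3 row that holds its listed position had 225 and 363 and then 180 and 355. Gm6793 was as high in M1 and RM1, at 245 and 215 counts, and its fitted M1 change of 1.66 was above its M2 change of 1.25. Firre, a nuclear lncRNA of the X chromosome, had 347 and 431 counts in M0 and M2 and did not pass.

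The start regions of members were searched for short motifs that transcription factors of the LPS and interferon response are known to bind. RefSeq gave a window of 250 bases before to 50 after the start for 164 members, among them 52 of the 67 lncRNAs, and the outermost start was used. The windows of U90926 and AI506816, the lncRNAs that rose and fell most in M1, are shown 5′ to 3′ on the minus strand of GRCm38.p6, at chr5:92215359-92215658 and chr5:23712618-23712917. The last 50 bases of each begin at the start site.
U90926: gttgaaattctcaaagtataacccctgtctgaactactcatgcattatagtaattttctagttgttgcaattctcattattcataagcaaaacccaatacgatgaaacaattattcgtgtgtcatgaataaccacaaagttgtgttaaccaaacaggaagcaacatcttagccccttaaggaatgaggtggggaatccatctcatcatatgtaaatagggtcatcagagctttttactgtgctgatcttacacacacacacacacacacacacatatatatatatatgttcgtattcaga
AI506816: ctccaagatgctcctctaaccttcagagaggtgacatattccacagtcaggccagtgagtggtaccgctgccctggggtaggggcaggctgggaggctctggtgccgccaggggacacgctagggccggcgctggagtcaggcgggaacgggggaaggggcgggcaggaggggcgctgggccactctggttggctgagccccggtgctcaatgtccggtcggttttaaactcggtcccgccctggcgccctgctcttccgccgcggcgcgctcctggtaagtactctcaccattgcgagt
Neither window, nor that of AW011738, held on either strand the interferon motifs ISRE and GAS (TTCNNNGAA), the AP-1 motif TGANTCA, the E-box CACGTG or the NF-kB motif, which says only that these letters are not in the windows. Of all 27025 promoters, 3.49% held the ISRE, 8.42% GAS, 7.92% AP-1, 7.24% the E-box and 8.19% NF-kB. Of the 52 lncRNA windows 2 held the ISRE, 4 GAS, 3 AP-1, 6 the E-box and 5 NF-kB, or 3.85%, 7.69%, 5.77%, 11.5% and 9.62%. Of the 10 windows of lncRNAs called higher in M1 against M0, 1 held the ISRE, 1 GAS, 1 AP-1, 2 the E-box and 0 NF-kB.

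Messages of the ribosome and several snoRNA hosts are known to begin with a run of pyrimidines, the terminal oligopyrimidine tract. A C followed by at least 4 pyrimidines, beginning within 5 bases of the start site, was found in 3 of the 9 host windows (33.3%) and in 18.5% of all promoters. These are shown from 30 bases before the start to 50 after it on GRCm38.p6 with the tract in capitals, Snhg8 at chr3:123508287-123508366 on the minus strand, and Snhg12 at chr4:132308648-132308727 and 2410006H16Rik at chr11:62602847-62602926 on the plus strand.
Snhg8: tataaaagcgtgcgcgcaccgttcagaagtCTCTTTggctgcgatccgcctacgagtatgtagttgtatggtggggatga
Snhg12: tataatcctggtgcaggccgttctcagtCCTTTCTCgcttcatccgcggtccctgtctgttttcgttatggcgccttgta
2410006H16Rik: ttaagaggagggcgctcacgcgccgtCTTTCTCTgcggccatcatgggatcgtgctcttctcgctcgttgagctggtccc
In M1 against M0 the log2 fold changes of these 3 genes were 0.64, 0.23 and 0.13, inside the range of the other 6 hosts, from -0.10 to 1.74.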

How the data were processed

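RNA was sequenced from 6 RAW264.7 conditions with 1 library each. The authors counted reads per gene and deposited raw counts for 24062 genes, and the submitters' processing notes name Trimmomatic 0.36, HISAT2 2.2.1, HTSeq 0.11.3 and build mm10. The strand setting and annotation version are not given in the sources used here. Members were rows with an NR_ accession and at least 600 counts in all. Members and lists were chosen with earlier results of these data known. Classes came from RefSeq (GRCm38.p6), and overlaps with coding exons and GC content from GENCODE M21. Listed coordinates were compared with RefSeq loci.

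Counts were scaled with TMM over all rows (edgeR 4.0.16 in R 4.3.3). A prior count of 2 went into each log2 fold change. A call needed a 2-fold difference and 10 counts in the higher of both libraries, and has no p-value. Intervals are exact Clopper-Pearson intervals at 95% and cover counting error only. The quasi-likelihood test of edgeR used an additive model with terms for polarization and irradiation. It took the 11574 genes that reached 10 counts in 3 or more libraries, left 2 residual degrees of freedom, and was adjusted by Benjamini-Hochberg, with 0.05 as the threshold. Other states thus replace replicates, which assumes the same effect in each and measures only the spread between these libraries. The test was run on simulated counts of 11574 genes (coefficient of variation 0.1), and of 200 with an irradiation change of 1 (log2) it recovered 100%, with 6 false calls. Of 200 with a change of 2 (log2) it also recovered 100%, with 14 false calls. The changed genes were drawn from those with higher mean counts, and each had the same change in all 3 states, as the model assumes. Recovery of genes whose change differs between states, such as Rn45s, was not simulated.

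Genes named are the 12 members with the most counts, the 5 highest and 5 lowest called in each comparison, members passing a test (10 smallest p), listed genes and rows at the limit, with up to 5 examples of other counts. Other members named under M1 polarization, and those behind counts of 5 or fewer, were chosen after their values were seen. Alternatives were DESeq2 (version 1.42.0) size factors or Wald test, library totals, other filters, a 4-fold threshold, a prior count of 0.25, removal of the GC trend (GC known for 98.3% of members), models with 1 term, and each state left out. The rest was done in Python 3.11.15 (pandas 2.3.3, numpy 2.4.6, matplotlib 3.10.9 and, for intervals, scipy 1.17.1). Other assays of the study were not analysed here.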

Additional observations from a re-analysis of the deposited data

Results flagged for a closer look

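Mir682 and Gm15441 moved in opposite directions between states after irradiation. The log2 fold change of Mir682 was 1.73 in RM0 against M0 and 1.19 in RM1 against M1, and -1.01 in RM2 against M2. That of Gm15441 was 1.15 in RM0 against M0, -1.34 in RM1 against M1 and -1.05 in RM2 against M2. These differences between states were not tested, since each state has 1 library with and 1 without irradiation.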

How the results depend on the processing

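The labels carry no replicate numbers, so no block of that kind could be added, but the fit with polarization compared each irradiated library with its partner within a state. With a 4-fold threshold the members called were 1 in RM0 against M0, 0 in RM1 against M1, 0 in RM2 against M2, 13 in M1 against M0, 0 in M2 against M0, 6 in RM1 against RM0 and 2 in RM2 against RM0. With the GC trend removed, RM2 against M2 had 3. For irradiation, members passing were 5 with no filter on low counts, 6 by DESeq2's Wald test, 9 without M0 and RM0, 14 without M1 and RM1, 6 without M2 and RM2 and 0 in a model without polarization. For M2 polarization they were 0 with library totals, 41 without M1 and RM1 and 0 in a model without irradiation. Over all settings the adjusted p of Sprr2g for irradiation ran from 1.76e-09 to 1.00, that of Malat1 for M2 from 1.04e-24 to 0.521 and that of Gm6793 from 1.75e-11 to 0.259 (edgeR and DESeq2). The lowest values for Malat1 and Gm6793 came from the fit without M1 and RM1, which holds 4 libraries and is a weak check. Other than the construction of these settings, the cause of the differences was not tested. Total counts of calls, higher and lower together, stayed within 1.5 times the reported count in the other settings. Taken apart, the higher and lower counts with M1 moved further with library totals. In M1 against M0 they went from 41 and 23 to 18 and 50, and in the M1 test from 80 and 52 to 37 and 102. No value of a named gene that was called changed sign. The main limits are that 1 library per condition gives no replicate check, that the scaling of M1 and RM1 sets the balance of higher and lower calls, and that rows overlapping a coding gene cannot be read as noncoding RNA. At this depth 3 counts or fewer in a library are treated as no measurement.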
